A study of Mus musculus with 4 samples.

Results

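The chromatin around 10 genes of the ETS family of transcription factors was examined with and without TGFβ in NMuMG, a cell line that derives from the mammary epithelium of a normal mouse. The genes were Ets1, Ets2, Elk1, Elk3, Elk4, Etv4, Etv5, Elf3, Ehf and Gabpa, chosen by name out of 22350 annotated protein-coding genes, and all 10 were found in the annotation. Accessibility was measured by ATAC-seq, in which the transposase Tn5 cuts into DNA that is not covered by nucleosomes, so that reads gather where chromatin is open. The labels give 4 samples and 3 peak lists. Cells in complete medium, which holds serum and insulin, received vehicle or 5 ng/ml TGFβ1 for 2 h, with 1 list each. Other cells went 6 h without serum and insulin before vehicle or 5 ng/ml TGFβ1 was added for 10 min. The labels of both of those samples name the same single list, so it was taken to stand for the experiment and not for a treatment. The name of the list refers to 10 min of TGFβ, but which libraries it was called from is not stated. For the starved TGFβ sample a field of the labels gives 2 h where its title gives 10 min, and the title was followed. Since each condition is represented by 1 list, conditions could not be tested against each other, and every value below describes these lists. The intervals given are 95% Wilson intervals, which cover the counting of regions only, and regions of 1 gene are not independent.

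ETS factors share a winged helix-turn-helix DNA-binding domain that recognizes a GGAA core, and many of them are phosphorylated by MAP kinases, which growth factors in serum and also TGFβ can activate. Ets1 and Ets2 are the founding members and respond to Ras and ERK signaling. Elk1, Elk3 and Elk4 are the ternary complex factors, which sit beside the serum response factor SRF on immediate early genes. Etv4 and Etv5 belong to the PEA3 subfamily, whose transcription follows FGF and ERK signaling. Elf3 and Ehf are epithelium-specific members, and Gabpa encodes the DNA-binding subunit of GABP, which serves promoters of mitochondrial and housekeeping genes.

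A region is a stretch of called peaks after intervals under 150 bp were dropped and neighbors closer than 1000 bp were joined. The lists held 19648 regions for vehicle, 38532 for TGFβ and 26732 for the 10 min experiment, and the lists hold no read counts. The study's supplement gives the sequencing depth of these libraries, which in complete medium was not greater for TGFβ than for vehicle, and no value below uses it. A score accompanies each peak and rises with its reproducibility, with 540 as the lowest value and 1000 as the cap in each list. The epithelial label was checked on the transcription start sites (TSS) of marker genes. The keratin genes Krt8, Krt18 and Krt19 had a TSS region in every list, Cdh1 had one in the 10 min list only, and Epcam and Cldn7 had none. Of 4 haematopoietic markers none had a TSS region in any list. Of 5 mesenchymal markers 1 (Col1a1) had one in every list, and of 4 endothelial markers 1 (Kdr) had one in the TGFβ list.

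The sequences of the regions on which the differences between lists turn are given first, from the mouse genome build NCBIM37 (mm9), each written 5′ to 3′ on the strand of its gene. Capitals mark matches to an AP-1 consensus (TGANTCA) or a SMAD consensus (GTCTAGAC or CAGACA), searched on both strands. The first 4 lie within 1000 bp of start sites and leave out annotated untranslated bases. The Elk3 stretch, directly upstream of the gene (chr10:92773881-92774017, minus strand), was inside a 10 min region. The Ehf stretch (chr2:103142318-103142597, minus strand) is the whole intronic region that was called in the TGFβ list alone. The Etv4 stretch (chr11:101646686-101646846, minus strand) was inside a vehicle region and had no counterpart at 10 min. The stretch of Etv5 (chr16:22439793-22440092, minus strand), the closest relative of Etv4 in the set, was covered in all 3 lists and is shown for contrast.
Elk3: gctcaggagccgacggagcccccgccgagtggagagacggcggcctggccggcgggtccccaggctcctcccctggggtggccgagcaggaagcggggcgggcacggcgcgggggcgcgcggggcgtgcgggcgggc
Ehf: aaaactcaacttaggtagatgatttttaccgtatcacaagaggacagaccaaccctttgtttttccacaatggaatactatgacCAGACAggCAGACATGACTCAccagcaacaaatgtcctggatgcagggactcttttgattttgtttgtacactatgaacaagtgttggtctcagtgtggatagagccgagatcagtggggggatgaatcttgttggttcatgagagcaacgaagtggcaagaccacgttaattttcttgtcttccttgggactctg
Etv4: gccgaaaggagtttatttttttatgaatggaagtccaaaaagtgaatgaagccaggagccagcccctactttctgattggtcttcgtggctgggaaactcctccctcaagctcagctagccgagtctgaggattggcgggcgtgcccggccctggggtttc
Etv5: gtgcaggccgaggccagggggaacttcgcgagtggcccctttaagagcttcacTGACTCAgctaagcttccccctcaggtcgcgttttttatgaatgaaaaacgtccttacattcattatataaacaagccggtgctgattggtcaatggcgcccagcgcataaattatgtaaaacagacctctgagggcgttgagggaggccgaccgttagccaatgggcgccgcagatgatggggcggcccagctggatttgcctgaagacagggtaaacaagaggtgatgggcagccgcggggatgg
No match fell in the printed Elk3 and Etv4 stretches, which are parts of regions, and the Elk3 stretch lay outside the TGFβ regions. Over its whole width, a TGFβ region of 816 bp near an Elk3 start site held 1 AP-1 and 4 SMAD matches. The whole Etv4 start-site region held 1 SMAD match with vehicle and 1 after TGFβ. The Ehf region carried 2 CAGACA matches and, directly after the second, 1 AP-1 match, and the Etv5 stretch carried 1 AP-1 match.

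The next 3 sequences come from regions that were called after TGFβ, overlapped no vehicle region and reached the score cap of 1000. They are the only member regions of that kind. The Ets1 region (chr9:32477073-32477312, plus strand) is printed whole, and of the Ets2 region (chr16:95921363-95921662, plus strand) and the Elf3 region (chr1:137162395-137162694, minus strand) the central 300 bases are given.
Ets1: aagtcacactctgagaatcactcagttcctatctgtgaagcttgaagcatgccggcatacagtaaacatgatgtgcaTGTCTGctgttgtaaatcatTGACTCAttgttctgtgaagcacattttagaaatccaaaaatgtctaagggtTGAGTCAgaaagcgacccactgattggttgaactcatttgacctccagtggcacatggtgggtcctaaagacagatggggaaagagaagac
Ets2: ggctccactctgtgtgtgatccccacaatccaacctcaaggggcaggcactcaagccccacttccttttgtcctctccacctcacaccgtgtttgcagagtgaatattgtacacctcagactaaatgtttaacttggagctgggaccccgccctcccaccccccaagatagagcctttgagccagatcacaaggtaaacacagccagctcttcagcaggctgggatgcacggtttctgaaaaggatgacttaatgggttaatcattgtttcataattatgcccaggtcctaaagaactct
Elf3: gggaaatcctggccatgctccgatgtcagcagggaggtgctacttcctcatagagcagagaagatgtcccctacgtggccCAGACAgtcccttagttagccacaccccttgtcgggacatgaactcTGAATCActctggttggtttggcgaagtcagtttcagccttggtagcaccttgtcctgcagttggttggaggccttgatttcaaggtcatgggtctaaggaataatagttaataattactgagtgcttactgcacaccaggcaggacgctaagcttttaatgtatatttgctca
The Ets1 region held 2 AP-1 matches and 1 SMAD match, and the Elf3 stretch held 1 of each. The Ets2 stretch held none of these letters.

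The last sequences are the sites in member start-site regions that match the ETS consensus itself (CCGGAAGT, in capitals). They are shown because they match the consensus of the family in regions at start sites of its own genes. Binding was not measured. The Elk4 site (chr1:133904118-133904147, plus strand) lies 51 bp upstream of a start site of the gene. The Gabpa site (chr16:84835092-84835121) lies 63 bp upstream, with the consensus on the minus strand, which is the strand printed.
Elk4: cggcccctcccCCGGAAGTgacgctcgcgc
Gabpa: cggagccagggCCGGAAGTagaacggtggc

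All 10 genes had a region within 1000 bp of an annotated TSS after TGFβ, against 8 with vehicle and 8 in the 10 min list. Elk3 and Ehf lacked one with vehicle, and Etv4 and Ehf lacked one at 10 min. Over all protein-coding genes the share with a TSS region was 41.0% with vehicle, 47.6% after TGFβ and 46.3% in the 10 min list. Ets1, Ets2, Elk1, Elk4, Etv5, Elf3 and Gabpa, 7 of 10, had one in all 3 lists, as had 39.9% of protein-coding genes. A region within 1000 bp of a start site after TGFβ and none with vehicle was found at 2 genes (7.24% of protein-coding genes). The reverse was found at none (0.622%). At Ehf the difference depended on the window, since its TGFβ region began 480 bp from the nearest start site. It was lost at 200 bp on either side, and at 2000 bp Ehf had a vehicle region too. The Elk3 pattern, with a TSS region in the TGFβ and 10 min lists and none with vehicle, was shared by 4.65% of protein-coding genes. That of Ehf, in the TGFβ list alone, was shared by 2.59%, and that of Etv4, in both complete-medium lists and not at 10 min, by 0.483%. The start-site regions behind these differences scored between 571 and 817, below the cap. The TGFβ list was also cut to the 19648 regions of the vehicle list, highest scores first, and the lowest score kept was 904. The start-site regions of Elk3, Ehf and Etv4 fell out of it, which left 7 genes. No share over all protein-coding genes is available under this cut.

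In the gene bodies with 20 kb on either side, there were 21 regions with vehicle, 43 after TGFβ and 27 at 10 min. The median per gene was 1.5, 3 and 2, against 1, 2 and 1 over all protein-coding genes, whose windows were shorter (median 55.4 kb against 66.9 kb). Per 100 kb of window the values were 2.64, 5.41 and 3.4 for the ETS genes and 1.5, 2.54 and 2.02 for all protein-coding genes. The number was higher after TGFβ than with vehicle at 9 of the 10 genes, which held for 48.2% of protein-coding genes. It was equal at Etv4 and lower at none, a direction seen at 2.07% of protein-coding genes. These shares are over all 22350 genes, of which 11105 had equal numbers. They are not matched to the members for window length or for having a TSS region, so they do not show an excess at the members. With the TGFβ list cut to the vehicle list's length, the member windows held 23 TGFβ regions against 21 with vehicle. The same count over all protein-coding genes is not available.

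**Figure D1:**
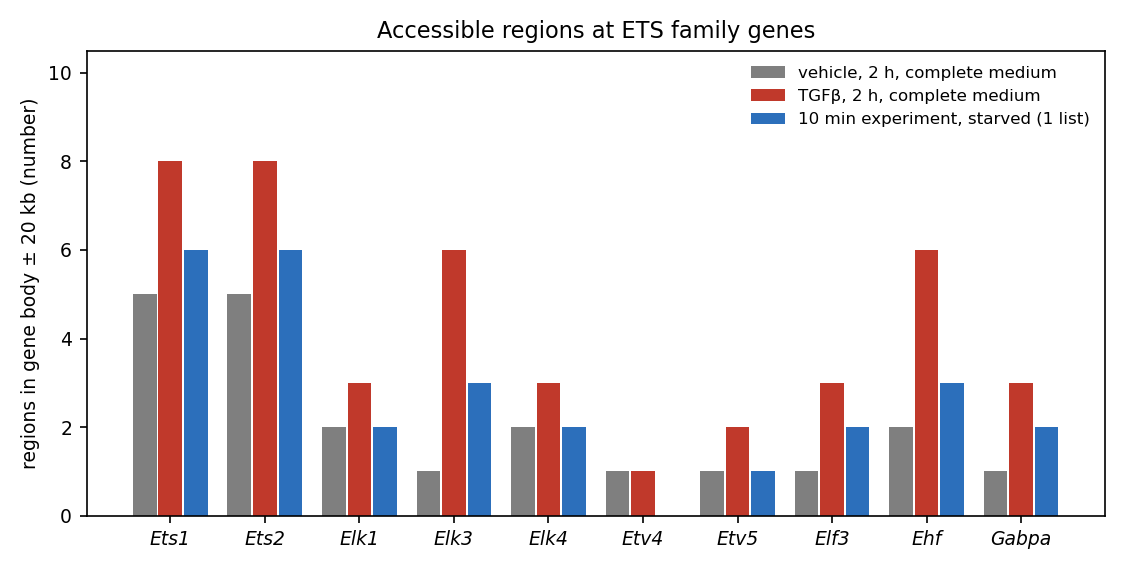
Number of regions in the gene body with 20 kb on either side (vertical axis) for each of the 10 ETS genes (horizontal axis), with 1 bar per peak list and no error bars, since each condition had 1 list. Ets1 and Ets2 had the most regions, 5, 8 and 6 each, Elk3 went from 1 with vehicle to 6 after TGFβ, and Etv4 had none in the 10 min list.

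At Ets1 (ENSMUSG00000032035.7, chr9:32443806-32565405) the count was 5 with vehicle, 8 after TGFβ and 6 at 10 min. The 5′ start site of the gene had no region in any of the 3 lists, with the nearest region 6329 bp away with vehicle, 6406 bp after TGFβ and 6311 bp at 10 min. The region at a start site was at the internal one, 59821 bp downstream. There it was 769 bp wide with vehicle, 638 bp after TGFβ and 636 bp at 10 min, at the cap in each list. The 3 TGFβ-only regions were all intronic, 240, 270 and 803 bp wide with scores of 1000, 659 and 944, and none of them was in the 10 min list. The widest TGFβ region of the 10 genes lay in an Ets1 intron (chr9:32516124-32517683), where 1560 bp stood in place of 337 bp with vehicle. In the 10 min list, 2 intronic regions at Ets1, with scores of 634 and 544, overlapped neither other list.

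Ets2 (ENSMUSG00000022895.8, chr16:95923682-95942658) had the same counts of 5, 8 and 6. Its start-site region was 721 bp wide with vehicle (score 873), 859 bp after TGFβ (score 1000) and 935 bp at 10 min (score 931). A second region, near the start of a retained-intron transcript, was 234 bp wide with vehicle and 282 bp after TGFβ, and was not called at 10 min. The TGFβ-only regions of Ets2 were 3, all intergenic. The one at the cap, 2169 bp upstream and 352 bp wide, was also in the 10 min list, at 488 bp and a score of 977. The region 27015 bp downstream of the 5′ end was likewise in the 10 min list, and the third was not. In the likeness over the 3 counts, 18 protein-coding genes had exactly the 5, 8 and 6 of Ets1, among them Ets2, 1810013L24Rik, Afmid and Arhgef18.

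Among the ternary complex factors, Elk3 showed the largest rise in number of the 10 genes. Elk3 (ENSMUSG00000008398.7, chr10:92710159-92773880), which can act as a repressor, had 1 region with vehicle, 6 after TGFβ and 3 at 10 min. A gain of 5 or more was seen at 2.38% of protein-coding genes. That share is not matched for window length, which was 103722 bp at Elk3 and 55.4 kb in the median of protein-coding genes. The vehicle region lay 14954 bp upstream and was present in every list. No interval of any width was called at an Elk3 start site with vehicle. After TGFβ a region of 175 bp (chr10:92773683-92773857, score 817) lay 23 bp inside the 5′ end, over an internal start site, and another of 816 bp (chr10:92771833-92772648, score 581) began 908 bp from the nearest start site. At 10 min a region of 357 bp (chr10:92773661-92774017, score 571) covered the 5′ end. The other 3 TGFβ-only regions were intronic, 591, 888 and 317 bp wide, and the widest of them, 888 bp, was also in the 10 min list.

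Elk1 (ENSMUSG00000009406.7, chrX:20510521-20527734) had 2 regions with vehicle, 3 after TGFβ and 2 at 10 min. Its start-site region was the member region that narrowed most, from 740 bp with vehicle to 507 bp after TGFβ, with 716 bp at 10 min. The scores there were 761, 1000 and 1000. In the TGFβ list 1 interval under the minimum width, which the refinement removed, also lay at this start site. The TGFβ-only region (334 bp, score 832) lay at the start of the neighboring gene Syn1, and the other shared region, 696 bp after TGFβ, lay at Uxt and A230072C01Rik.

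Elk4 (ENSMUSG00000026436.9, chr1:133904184-133929189) also had 2, 3 and 2 regions. Its start-site region widened from 195 bp with vehicle (score 853) to 1053 bp after TGFβ (score 942) and was 1097 bp wide at 10 min (score 991). The ratio of TGFβ to vehicle width, 5.40, was the highest among the shared regions of the 10 genes. The TGFβ-only region (186 bp, score 544) lay in introns of the neighboring Mfsd4 and Gm17288.

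The PEA3 genes carried the fewest regions of the set in the TGFβ and 10 min lists. Etv4 (ENSMUSG00000017724.8, chr11:101631056-101646685) had 1 with vehicle, 1 after TGFβ and 0 at 10 min. The vehicle region was 308 bp wide with a score of 613 and the TGFβ region 309 bp with a score of 731, both over the start site. At 10 min no interval of any width was called in the window, and the nearest region was 27975 bp from the 5′ end. A window without any 10 min region was found for 31.2% of protein-coding genes. Etv5 (ENSMUSG00000013089.8, chr16:22381382-22439792) had 1, 2 and 1. Its start-site region was at the cap in every list and was 479 bp wide with vehicle, 553 bp after TGFβ and 815 bp at 10 min. The TGFβ-only region of Etv5, 167 bp wide with a score of 607, was intronic and was the narrowest TGFβ-only region of the 10 genes.

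The epithelium-specific genes differed from each other at the start site. Elf3 (ENSMUSG00000003051.7, chr1:137150151-137155049) had 1 region with vehicle, 3 after TGFβ and 2 at 10 min. Its start-site region was at the cap in all 3 lists and was 605 bp wide with vehicle, 1144 bp after TGFβ and 1172 bp at 10 min. The TGFβ-only region at the cap, 411 bp wide and 7496 bp upstream of Elf3, lay in a noncoding exon where the annotation has Gm16606 and Rnpep. The other, 207 bp wide with a score of 845, lay in a coding exon of Rnpep and was also in the 10 min list. It was within 1000 bp of a start site of Rnpep.

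Ehf (ENSMUSG00000012350.8, chr2:103103590-103143435) had 2 regions with vehicle, 6 after TGFβ and 3 at 10 min. The vehicle regions were intragenic, 853 bp at the cap and 193 bp with a score of 547, and both were in every list, at 697 bp and 324 bp after TGFβ. No interval was called within 1000 bp of an Ehf start site with vehicle or at 10 min. After TGFβ the intronic region of 280 bp with a score of 751 printed above began 480 bp from the nearest start site. It was outside the limit when start sites were taken with 200 bp on either side. The other 3 TGFβ-only regions scored between 608 and 870, and the one 571 bp wide was also in the 10 min list.

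Gabpa (ENSMUSG00000008976.9, chr16:84835170-84864024) had 1 region with vehicle, 3 after TGFβ and 2 at 10 min. Its start-site region was at the cap in every list and the widest start-site region of the set, 1423 bp with vehicle, 1393 bp after TGFβ and 1917 bp at 10 min. The start of Atp5j, which encodes a subunit of the mitochondrial ATP synthase, lies 31 bp away on the other strand, so the region cannot be assigned to either gene. The TGFβ-only regions (472 bp and 216 bp, scores 605 and 700) were intergenic, and the 10 min list held 1 region that overlapped neither other list.

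**Figure D2:**
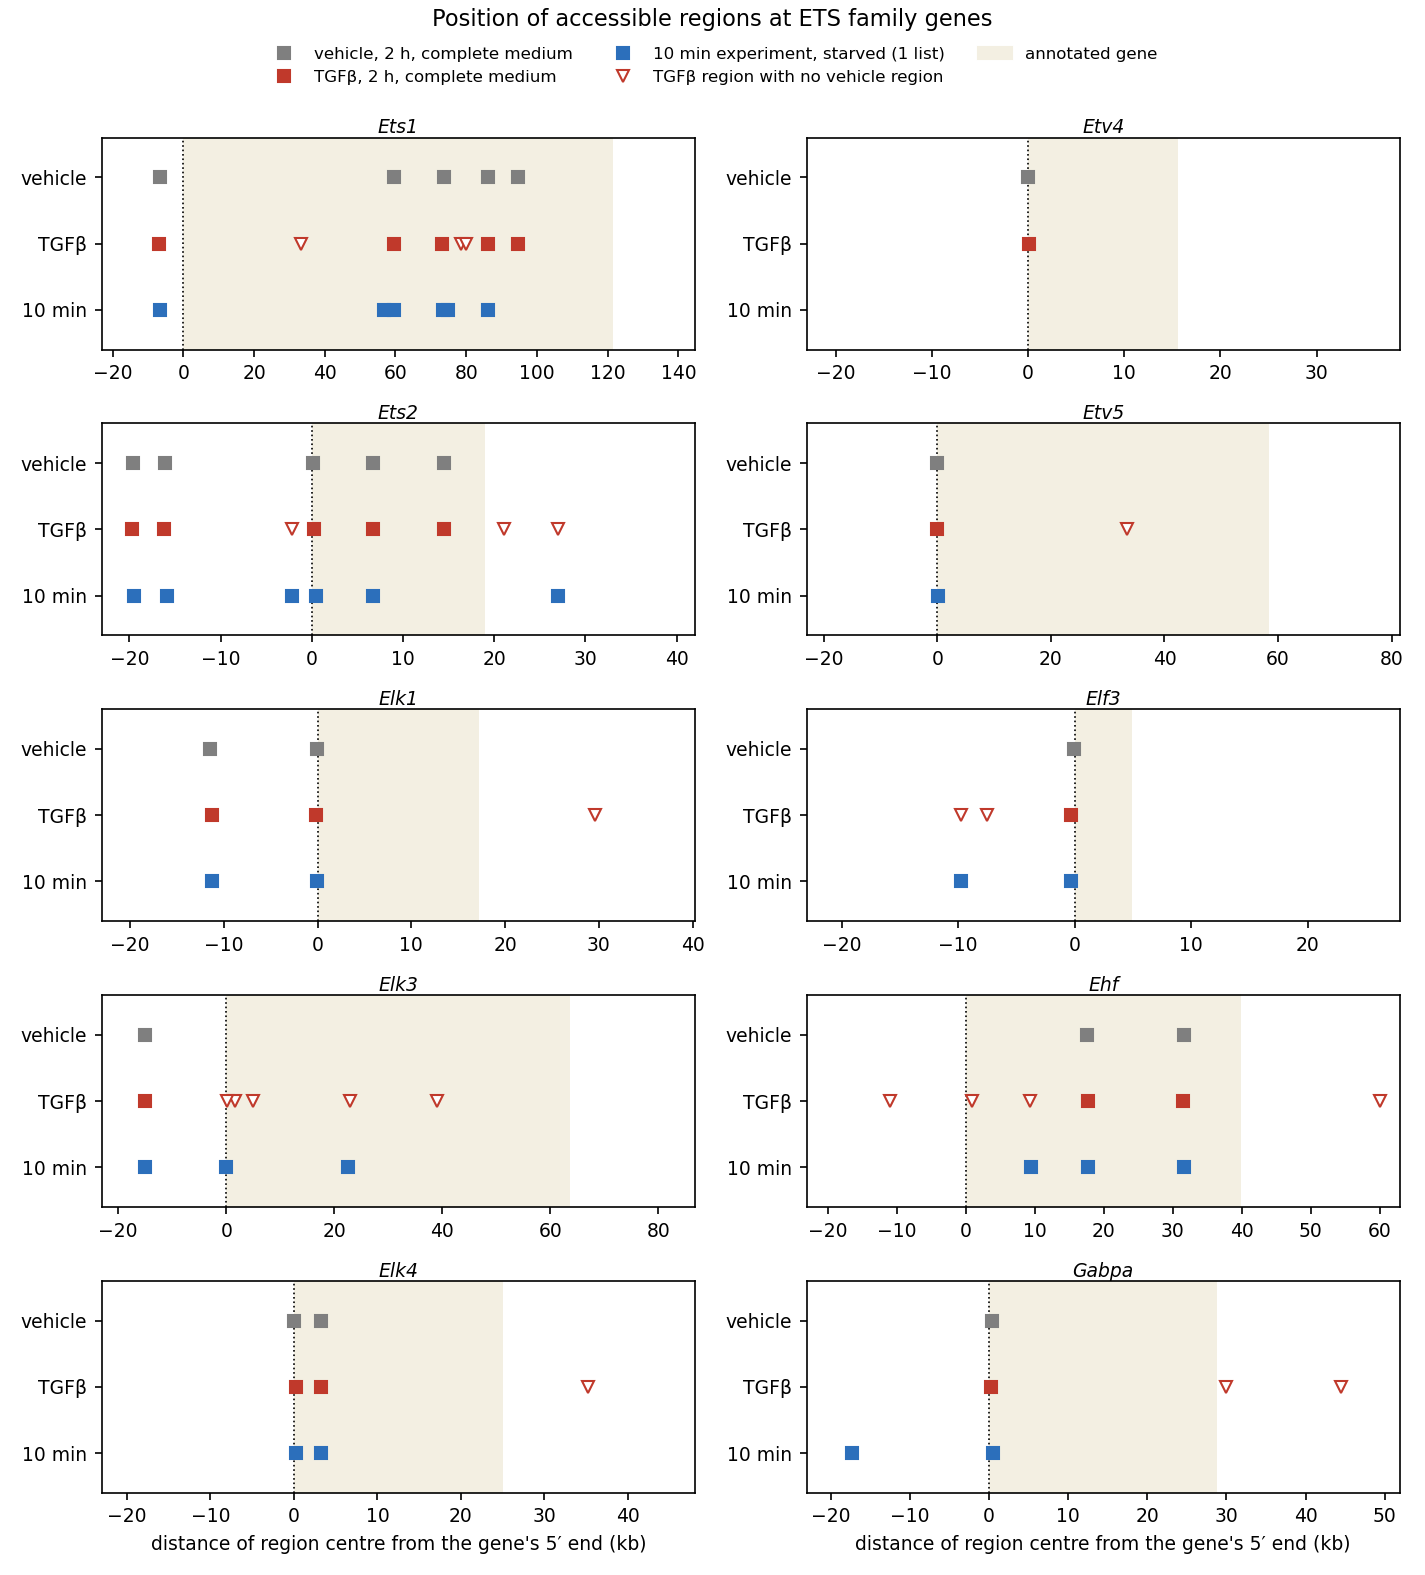
Centers of the regions along each gene, with distance from the gene's 5′ end in kb on the horizontal axis and 1 line per peak list on the vertical axis. Shading marks the annotated gene, symbols mark centers and not widths, and open triangles are TGFβ regions that overlap no vehicle region. Of these there were 22, with 5 at Elk3, 4 at Ehf and none at Etv4.

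Over the 10 genes 22 of the 43 TGFβ regions overlapped no vehicle region, beside 52.4% of all TGFβ regions. They lay at 9 of the genes, 11 in introns, 7 between genes and 4 in exons, and 3 were at a start site of the member (2 at Elk3 and 1 at Ehf). Away from the start site of any gene, 17 of 28 TGFβ regions were TGFβ-only, beside 64.6% of all such regions, and at the members' own start sites 3 of 12, beside 21.5% of all TSS regions. The reverse was not seen. All 21 vehicle regions overlapped a TGFβ region, while 6.44% of all vehicle regions did not, and a count of 0 among 21 allows a share of up to 14.3% (3 counts of the total). With the TGFβ list cut to the length of the vehicle list, 5 member regions were TGFβ-only and 3 vehicle-only. Shares over all regions are not available under this cut, so these counts have nothing to be set beside. The TGFβ-only regions were narrower than the shared ones, with a median of 330.5 bp (167 to 888 bp) against 553 bp (282 to 1560 bp). In the whole TGFβ list these medians were 281 and 546 bp. At the score cap were 3 of the 22 TGFβ-only regions (13.6%, and 13.9% in the whole list) and 15 of the 21 shared ones (71.4%, and 71.6%). Of all member regions 5 of 21 with vehicle, 18 of 43 after TGFβ and 7 of 27 at 10 min were at the cap, beside 38.2%, 41.4% and 29.9% of the whole lists.

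The 10 min list held 6 of the 22 TGFβ-only regions (27.3%), beside 31.5% of all TGFβ-only regions. They were 2 at Ets2, 2 at Elk3, 1 at Elf3 and 1 at Ehf. Of the shared TGFβ regions 18 of 21 were in it (85.7%, and 90.8% in the whole list). Of the vehicle regions 17 of 21 were in it, beside 87.6% of all vehicle regions. The 10 min list also held 3 member regions of 27 absent from both complete-medium lists (12.2% of the whole list), which were 2 at Ets1 and 1 at Gabpa. Starvation, time and treatment differ together between this list and the others and cannot be told apart.

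The widths of shared regions were mostly larger after TGFβ. Of 21 vehicle regions 15 were wider in the TGFβ list by more than a single base and 5 were narrower. The region at Etv4, 308 bp with vehicle and 309 bp after TGFβ, was wider by a single base and is not among the 15. The median ratio of TGFβ to vehicle width was 1.21, from 0.685 at Elk1 to 5.40 at Elk4. Over 18268 such pairs in the lists 66.1% were wider, with a median ratio of 1.11. Against the 10 min list 13 of 17 were wider, with a median ratio of 1.5, beside 82.1% and 1.30 over all pairs.

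**Figure D3:**
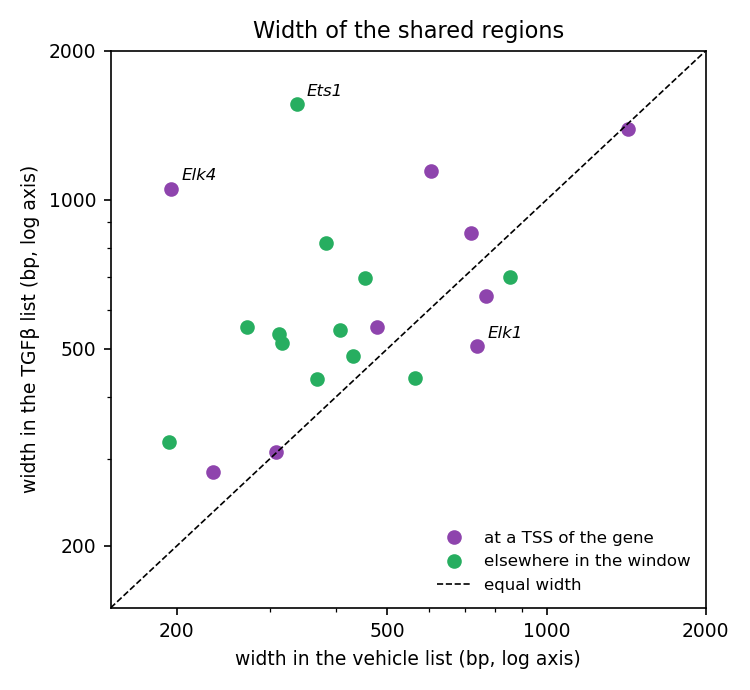
Width in the vehicle list (horizontal, bp, log axis) and in the TGFβ list (vertical, bp, log axis) of the 21 vehicle regions in the windows of the ETS genes, each a point, with the dashed line at equal width. Elk4 (195 and 1053 bp) and an Ets1 intron (337 and 1560 bp) lie far above the line and Elk1 (740 and 507 bp) below it.

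The sequences within 200 bp of the region centers were searched for consensus matches, apart from start sites of any gene. AP-1 matches were in 20 of 28 such distal TGFβ regions (71.4%, 52.9 to 84.7%), where all distal TGFβ regions had them in 49.3%. With vehicle they were in 8 of 11 (72.7%, 43.4 to 90.3%, against 51.7%) and at 10 min in 9 of 16 (56.2%, 33.2 to 76.9%, against 46.8%). The AP-1 interval after TGFβ lay above the share of its list, while the other AP-1 intervals and the SMAD intervals below included theirs. All of them treat regions of the same gene as independent, which they are not, so an interval here is no test of enrichment. SMAD matches were in 14 of 28 distal TGFβ regions (50%, 32.6 to 67.4%, against 40.2%), in 7 of 11 with vehicle (63.6%, 35.4 to 84.8%, against 36.2%) and in 9 of 16 at 10 min (56.2%, 33.2 to 76.9%, against 34.9%). With start sites included, AP-1 among TGFβ-only regions was matched in 14 of 22 (63.6%, and 44.7% in the whole list) and SMAD in 8 of 22 (36.4%, and 40.6%). Among the 21 shared TGFβ regions, 9 of them at a start site of the member, AP-1 was matched in 47.6% (31.8% in the whole list) and SMAD in 57.1% (29.0%).

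The ETS consensus CCGGAAGT was in no distal region of the members in any list, where all distal regions held it in 0.858% with vehicle, 0.75% after TGFβ and 0.784% at 10 min. Within 200 bp of the center it was in 0 of the 43 TGFβ regions, beside 2.78% of the whole list. A count of 0 there allows a share of up to 6.98% (3 counts of the total, with a Wilson upper bound of 8.2%). With vehicle it was in 1 of 21 regions (4.76%, and 4.72% in the whole list). At 10 min it was in 0 of 27 (3.77% in the whole list). Read over the whole width of start-site regions, it was at Elk4 and Gabpa in each list, 2 of 9 regions with vehicle, 2 of 12 after TGFβ and 2 of 8 at 10 min. All start-site regions held it in 11.7%, 10.6% and 11.8%. Within 200 bp of the center the CArG box, the site of SRF, was matched in 1 member region after TGFβ. This region lay 27015 bp from the 5′ end of Ets2, and its 10 min counterpart was matched too. The shares of member regions were 2.33% after TGFβ and 3.7% at 10 min, beside 1.92% and 1.72% of the whole lists.

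**Figure D4:**
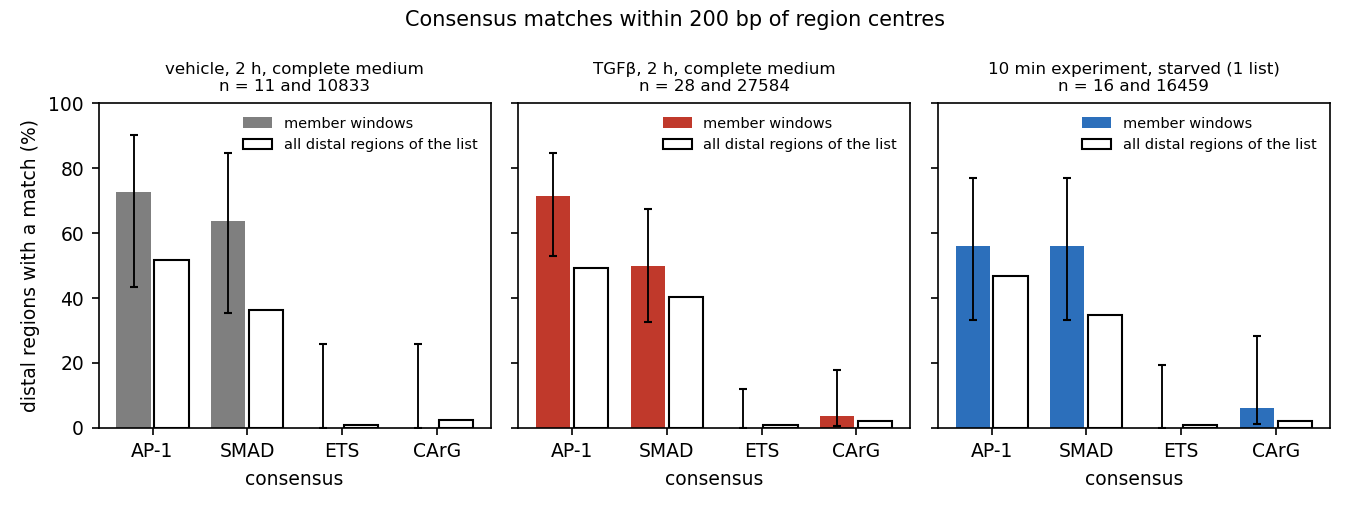
Percent of distal regions (vertical axis) with a match to each consensus (horizontal axis) within 200 bp of the center, filled bars for the ETS genes with 95% Wilson intervals and open bars for all distal regions of the same list, 1 panel per list. AP-1 matches stood at 71.4% against 49.3% in the TGFβ list. Distal ETS matches were at 0 for the ETS genes, beside 0.858% (vehicle), 0.75% (TGFβ) and 0.784% (10 min) of all distal regions.

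The rest of the family was read by the same rules. Of 17 further ETS genes 16 were in the annotation, and Etv3l was not. A TSS region was present in all 3 lists at 6 of them, which were Etv3, Etv6, Elf1, Elf2, Elf4 and Erf. Elf5, a regulator of mammary alveolar cells, had one in the 10 min list only. None of the lists had one for Etv1, Etv2, Erg, Fli1, Fev, Spi1, Spib, Spic and Spdef, which include the blood and endothelial members of the family, and 50.4% of protein-coding genes had none either. The windows of all 16 held 24 regions with vehicle, 46 after TGFβ and 37 at 10 min. More regions after TGFβ than with vehicle were counted at 10 of them, beside 48.2% of protein-coding genes, and equal numbers at 6. Per 100 kb of window the values were 1.43, 2.74 and 2.2, beside 1.5, 2.54 and 2.02 for all protein-coding genes. For the 10 members they were 2.64, 5.41 and 3.4.

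Ets1, Ets2 and Ehf each lie beside another gene of the family, a comparison made after the values were seen. Fli1, 94.8 kb from Ets1, had 0 regions with vehicle, 1 after TGFβ and 0 at 10 min, where Ets1 had 5, 8 and 6. Erg, 115 kb from Ets2, had 0, 0 and 1, against 5, 8 and 6. Elf5, 108 kb from Ehf, had 0, 3 and 3, against 2, 6 and 3. In the first 2 pairs the member had the higher number in each list, and Ehf and Elf5 were equal at 10 min.

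Of 5 genes for partners of the members, 4 had a TSS region in all 3 lists, beside 39.9% of protein-coding genes. Gabpb1, which encodes the beta subunit of GABP, had 1 region in each list, at its TSS. Gabpb2 had no TSS region, with 1, 2 and 2 regions in its window. Srf had 2 regions in each list and a TSS region in all of them. The SRF coactivator genes Mkl1 and Mkl2, whose products compete with ternary complex factors for SRF, had a TSS region in every list, and their windows held 3, 10 and 6 regions and 4, 11 and 7 regions. The partner windows summed to 11 regions with vehicle, 26 after TGFβ and 18 at 10 min. Per 100 kb of window this was 1.74, 4.1 and 2.84, beside 1.5, 2.54 and 2.02 for all protein-coding genes.

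**Figure D5:**
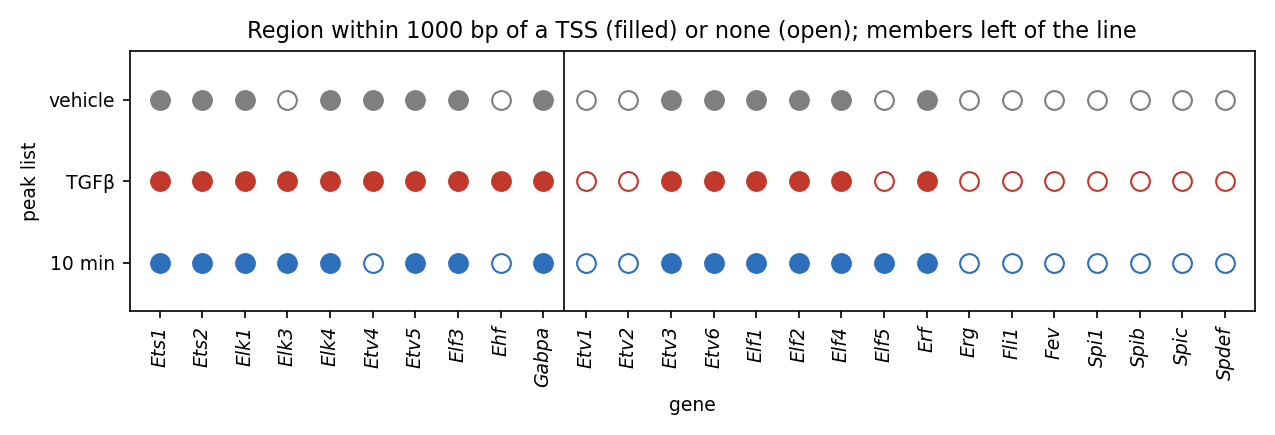
Presence of a region within 1000 bp of a TSS, by gene (horizontal axis, the 10 ETS genes to the left of the line and 16 further family genes to the right) and peak list (vertical axis). Filled symbols mark a region and open symbols none, and the lists differ at Elk3, Ehf and Etv4 and, among the further genes, at Elf5.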

How the data were processed

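The authors deposited 3 peak lists for 4 ATAC-seq samples of NMuMG cells, each line an interval with a score (their scaled irreproducible discovery rate). Per the study's methods, reads were processed with the ENCODE pipeline on mm9, peaks were called with MACS2 2.1.2 (q threshold 0.01) and kept at a discovery rate up to 0.05 between biological replicates, while the labels give 1 sample per condition. No further sample columns were present. Deposited scores were used only within lists, apart from shares at the cap.

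Intervals under 150 bp were dropped, gaps under 1000 bp merged, and a 1 bp overlap counted as shared. Genes came from GENCODE vM1, which is on NCBIM37 (mm9). The study used UCSC knownGene instead. Windows were gene bodies with 20 kb flanks. Neighboring windows overlap, so sums over all genes count some regions repeatedly. Consensus matches were sought on both strands. Named regions were those at member start sites, TGFβ-only regions at the score cap and the widest TGFβ region of each gene, with others by range. The members and lists were chosen with earlier results of these data known. Likeness was the summed absolute difference of the 3 region counts. Python 3.11.15, numpy 2.4.6, pandas 2.3.3, pysam 0.24.0, scipy 1.17.1 and matplotlib 3.10.9 were used, and the steps were tested on simulated data. Alternatives varied width, merging, threshold, list length, window, flank, overlap and motif.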

Additional observations from a re-analysis of the deposited data

How the results depend on the processing

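No paired analysis was possible because the results come from no test and a condition had a single list. Of 88 alternatives recomputed for 13 results, 69 stayed within the set margin and 19 did not. With peaks at or above the median score of their list, 4 genes had a TSS region with vehicle and 6 after TGFβ, the windows held 5, 19 and 13 regions, 14 were TGFβ-only and 50% of these were in the 10 min list. With the TGFβ list cut to the vehicle list's length, 23 TGFβ regions, 5 TGFβ-only and 3 vehicle-only regions were left, by fewer regions entering. Counts under this cut were taken for the members only. A minimum width of 300 bp gave 1 vehicle-only region and removed the start sites of Elk3 and Ehf after TGFβ and of Elk4 with vehicle. Gene bodies alone held 27 TGFβ regions, 11 of them TGFβ-only, flanks of 5 kb gave 14 TGFβ-only regions, and flanks of 50 kb gave 34, 66 and 43 regions. The shorter ETS consensus CGGAAG was in 9.3% of TGFβ regions (14.8% of the whole list), and AP-1 within 500 bp in 72.1% (49.3%). With start sites taken at 2000 bp on either side, Ehf gained a region with vehicle and at 10 min. Lists without read counts, and 1 list per condition, limit every comparison.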
